A study of Mus musculus with 42 samples.

Results

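Dppa2, Dppa3, Dppa4 and Dppa5a are 4 genes of the developmental pluripotency associated (Dppa) group, and they were taken by gene name from the deposited tables of polyA RNA. They are 4 of 16345 named genes in the table of epiblast-like cell (EpiLC) libraries and 4 of 16753 in the table of embryoid body (EB) libraries. All 4 passed the filter on low values in every fit. Values are reads of a gene divided by 1 scaling factor per library, called deposited values here. They are not divided by gene length, so levels are compared between libraries and not between genes.

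The group is held together by a name and by expression in pluripotent cells and the germ line, not by a shared protein fold. Dppa2 and Dppa4 are neighbouring genes for SAP-domain DNA-binding proteins that act as a pair on chromatin, keep developmental promoters open to later use and can switch on genes of the early cleavage embryo. Dppa3, also called Stella or PGC7, is a maternal and germ cell protein that holds back maintenance methylation of DNA through UHRF1. Dppa5a, also called Esg1, encodes a KH-domain RNA-binding protein that is abundant in embryonic stem cells (ESCs).

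The 32 polyA libraries come from mouse ESC cultures, with 1 library for each condition and time. In the line KH2-ISY1, doxycycline (Dox) switches on a transgene for Flag-ISY1, that is ISY1, a protein of the spliceosome, with a Flag tag. Without Dox it gave 10 libraries from 2i/LIF (0 h, the naive state) through 6, 12, 18, 24, 30, 36, 48, 72 and 96 h of EpiLC medium. With Dox it gave 4 libraries at 24, 48, 72 and 96 h. A DGCR8 knockout ESC line, which lacks a protein needed to process most microRNAs, gave 6 libraries at 0, 6, 24, 48, 72 and 96 h. Another 4 libraries are cESCs, KH2-ISY1 EpiLCs of 24 or 48 h, made with or without Dox, that were put back into 2i/LIF and are labelled as without Dox from then on. In the EB table, KH2-ISY1 cells in serum/LIF (day 0) and in EB medium for 1, 2, 4, 8, 10 and 13 days without Dox gave 7 libraries, and serum/LIF cells with Dox gave 1. The labels name no cultures, clones or parent line of the knockout, and no time spent in 2i/LIF by the cESCs. The knockout is thus compared with a different line that carries the unused transgene, and an effect of the deletion cannot be told apart from a difference between lines.

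Read totals, estimated where whole reads were not recovered, ran from 5800000 to 56020000 per library. Isy1 stood at 707.7 to 3038.3 in the EpiLCs with Dox and at 396.5 to 557.5 at the same hours without it. With Dox, Isy1 was highest at 24 h and lowest at 96 h. Dgcr8 stood at 36.8 to 44.5 in the 6 knockout libraries and at 75.2 to 231.0 in the 10 libraries without Dox, and which part of the gene was removed is not given in the sources used here. Summed values of the ESC markers Pou5f1, Sox2, Nanog and Zfp42 were 7257.9 to 25210.2 along the EpiLC course without Dox. In the EB table they fell to 1025.0 at day 13.

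On the way from 2i/LIF into EpiLCs, Dppa2 and Dppa4 rose early and fell again, Dppa3 dropped within hours, and Dppa5a fell mainly after 48 h. All 4 genes passed the limma test of a smooth course over the 10 libraries, against 50.1% of the 16206 genes tested. With 1 library per hour, the spread of the libraries around the fitted curve stands in for replicate error. In bulk RNA, fewer cells expressing a gene and less RNA per cell cannot be told apart.

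**Figure D1:**
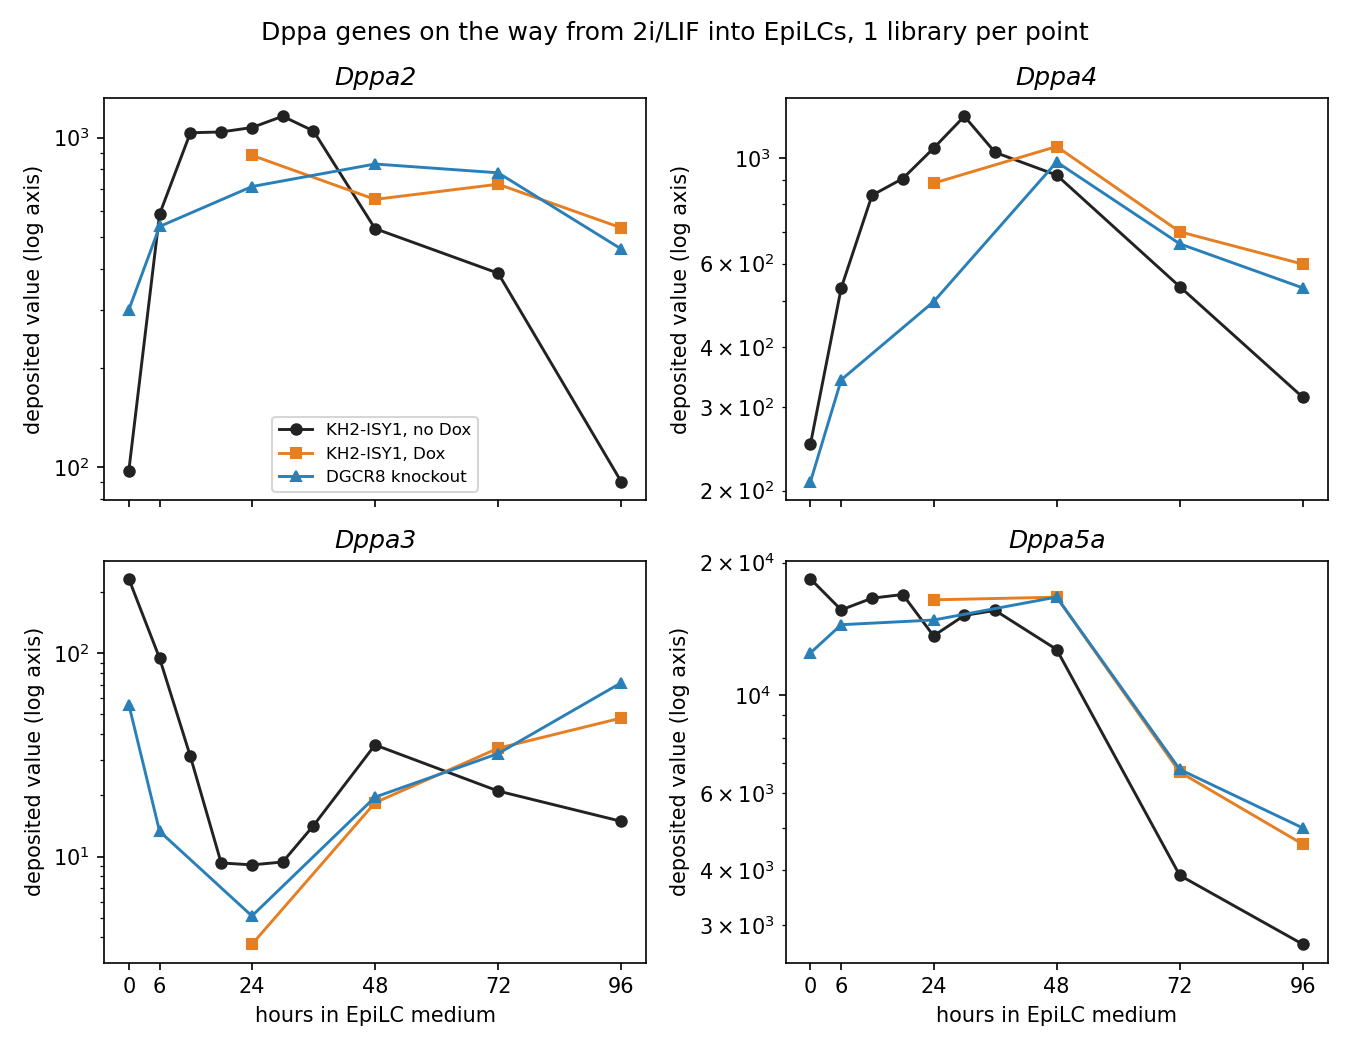
Deposited values of each Dppa gene on a log axis against hours in EpiLC medium, 1 library per point, for KH2-ISY1 without Dox (circles), with Dox (squares) and the DGCR8 knockout (triangles). Without Dox, Dppa2 and Dppa4 peak at 30 h, Dppa3 is lowest at 24 h, and Dppa5a is at 12688.5 or more until 48 h; at 96 h the libraries without Dox are the lowest of the 3 for every gene.

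Dppa2 stood at 97.4 in 2i/LIF, reached 585.7 at 6 h and 1034.1 at 12 h, and kept to 1040.1, 1072.7, 1160.6 and 1047.3 at 18, 24, 30 and 36 h. It was then 529.2 at 48 h, 387.5 at 72 h and 90.2 at 96 h. The 5 libraries from 12 to 36 h lie on a plateau, the 0 h and 96 h libraries lie together at the bottom, and no other library overlaps with either set. The fitted rise from 0 to 24 h was 3.56 ± 0.27 (SE) on the log2(value + 1) scale (limma adjusted p = 2.60e-05). The fitted change from 24 to 96 h was -3.45 ± 0.25 (limma adjusted p = 9.92e-06).

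Dppa4, the partner of Dppa2, moved the same way over a smaller range. It stood at 250.4 in 2i/LIF, at 533.3, 834.7, 905.2, 1048.2 and 1223.5 at 6, 12, 18, 24 and 30 h, and at 1027.2, 920.4, 536.5 and 314.0 at 36, 48, 72 and 96 h. Its fitted rise from 0 to 24 h was 2.08 ± 0.15 (limma adjusted p = 1.45e-05), and its change from 24 to 96 h was -1.76 ± 0.14 (limma adjusted p = 1.25e-05). Dppa4 was still at 920.4 at 48 h, when Dppa2 had left its plateau. The ratio of Dppa2 to Dppa4, which carries the lengths of both genes so that only its change can be read, was 0.389 at 0 h, 1.24 at 12 h, 0.575 at 48 h and 0.287 at 96 h. The fitted difference between 96 h and 0 h was small for both genes, 0.10 ± 0.33 for Dppa2 and 0.32 ± 0.18 for Dppa4, and it turned to -2.56 and -0.80 without the 0 h library, when it is counted from 6 h. For Dppa2 it was also -0.14 without the 72 h library.

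Over the first 24 h, 3 of the 4 Dppa genes passed the limma test, against 21.0% of all genes tested. From 24 to 96 h again 3 of 4 passed, against 30.9% of all genes. The gene that did not pass was Dppa5a in the early stretch and Dppa3 in the late one. Both stretches were set after the rise and fall of Dppa2 and Dppa4 had been seen. All 4 genes kept their direction and their side of the threshold in both stretches under the 16 alternatives. These left out each library between 0 and 96 h in turn, but never the 0 h or the 96 h library. How far the early stretch rests on the 0 h library and the late one on the 96 h library was thus not tested.

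Dppa3 fell from 232.2 in 2i/LIF to 94.6 at 6 h, 31.1 at 12 h and 9.3 at 18 h. It was 9.1 at 24 h, 9.4 at 30 h, 14.2 at 36 h, 35.4 at 48 h, 21.0 at 72 h and 14.9 at 96 h. The 2i/LIF library lies above all 9 others and the 3 libraries from 18 to 30 h lie below them. The fitted change from 0 to 24 h was -4.26 ± 0.78 (limma adjusted p = 0.00377). From 24 to 96 h the fitted change was 0.31 ± 0.72 (limma adjusted p = 0.779). The low values rest on few reads: the 24 h library holds 10 reads of Dppa3, with a 95% exact Poisson interval of 4.36 to 16.7 in deposited units, and the 48 h library holds 40, with an interval of 25.3 to 48.2. These intervals cover counting error only.

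Dppa5a kept between 12688.5 and 18358.3 in the 8 libraries from 0 to 48 h. It stood at 18358.3, 15609.5, 16596.4, 16917.4, 13627.3, 15166.5, 15566.9 and 12688.5 at 0, 6, 12, 18, 24, 30, 36 and 48 h, and then at 3894.0 at 72 h and 2715.3 at 96 h. The 72 h and 96 h libraries lie apart below all the others. The fitted change from 0 to 24 h was -0.21 ± 0.22 (limma adjusted p = 0.536), and that from 24 to 96 h was -2.73 ± 0.21 (limma adjusted p = 1.17e-05).

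The libraries of the course differ in depth, with 6170000 to 6350000 reads at 0, 24 and 48 h, 9150000 to 9710000 reads at 6, 12, 18, 30 and 36 h, and 11420000 and 13150000 reads at 72 and 96 h. The 96 h total is an estimate, as whole reads were not recovered there. Within the 3 libraries of about equal low depth, Dppa2 went from 97.4 to 1072.7 and 529.2, Dppa4 from 250.4 to 1048.2 and 920.4, Dppa3 from 232.2 to 9.1 and 35.4, and Dppa5a from 18358.3 to 13627.3 and 12688.5. The values after 48 h come from deeper libraries, and the part of depth in the course was not tested. The summed value of the 3 fibroblast markers of 7 found in this table was 20.8 to 66.9 up to 48 h and 147.0 and 154.5 at 72 and 96 h, and its part in the late values was not tested either.

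Near copies of pluripotency genes are common in the mouse genome, and the counting could have split reads between a gene and its copies. The genes most like each Dppa gene were ranked by the Pearson correlation of log2(value + 1) over the 24 EpiLC-table libraries, among 13956 genes, as a description. These libraries share hours, depth and line. The first 2 genes for Dppa2 were Gm9788 (r = 0.995) and Gm8023 (r = 0.992), and the first 2 for Dppa4 were Gm14058 (r = 0.991) and Gm5501 (r = 0.963). For Dppa5a, 2 of the first 3 were Gm6798 (r = 0.989) and Gm15310 (r = 0.973). The GRCm38.p6 gene table of RefSeq lists all 6 as pseudogenes and does not name their parent genes.

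The share of each pseudogene in the value of its Dppa gene varied by 1.41- to 2.08-fold over the 24 libraries. Gm9788 held 17.6% to 28.5% of the value of Dppa2 in the same library, while Dppa2 itself ranged from 60.0 to 1160.6. Such a share carries the lengths of both genes, so that only its range can be read. Gm8023 held 9.57% to 16.1% of Dppa2, Gm14058 16.6% to 23.4% and Gm5501 4.15% to 8.63% of Dppa4, and Gm6798 3.20% to 6.02% and Gm15310 2.31% to 4.62% of Dppa5a. In the 8 EB-table libraries the shares were 19.3% to 31.3% for Gm9788, 6.24% to 15.8% for Gm8023, 15.2% to 20.8% for Gm14058, 3.50% to 9.11% for Gm5501, 3.45% to 5.86% for Gm6798 and 2.37% to 5.05% for Gm15310. The gene Pigp, which makes part of the enzyme for the first step of GPI anchors, also tracked Dppa5a (r = 0.980), at 2.51% to 4.45% of it, and the gene table places Gm15310 inside Pigp. Whether reads of these rows come from the Dppa genes was not tested, and the values of Dppa2, Dppa4 and Dppa5a are uncertain by what such copies may have taken.

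The other genes most like Dppa2 were Tle4 (r = 0.943), Gtse1 (r = 0.942) and Zfp532 (r = 0.942), with r of 0.920, 0.971 and 0.718 in the EB table. Dppa4 was followed by Dnmt3l (r = 0.940), the cofactor of de novo DNA methylation, Tcf15 (r = 0.914) and Spn (r = 0.904), with 0.970, 0.952 and 0.767 in the EB table. For Dppa5a the list closed with Gm13212 (r = 0.929) and Mtf2 (r = 0.927), a Polycomb cofactor, with 0.889 and 0.955 in the EB table. Dppa3 had no such pseudogene among its first 5, which included Prpf39 (r = 0.883), Gata2 (r = 0.864), Plbd1 (r = 0.861) and Tfap2c (r = 0.859). The EB table gave r of 0.062, -0.642, -0.395 and 0.508 for these 4, positive for Prpf39 and Tfap2c and negative for Gata2 and Plbd1. Dppa3-ps, a pseudogene named after Dppa3, stood at 0 to 57.5 and never above 19.8% of Dppa3.

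Among themselves the 4 genes differed in their patterns. Over the 24 EpiLC-table libraries, Dppa2 and Dppa4 had r = 0.874, and Dppa4 ranked 51 among the genes most like Dppa2. Dppa3 ran against both, with r = -0.778 to Dppa2 and -0.706 to Dppa4. Dppa5a had r = 0.043 with Dppa2, 0.018 with Dppa4 and 0.182 with Dppa3. In the 8 libraries of the EB table, by contrast, all 6 pairs had positive r, from 0.665 between Dppa2 and Dppa3 to 0.978 between Dppa2 and Dppa4.

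The comparison with and without Dox asks what more ISY1 does to the exit from the naive state. Isy1 with Dox was not even along the hours, at 3038.3 at 24 h and 707.7 at 96 h, and its part in the differences was not tested. Dppa5a was higher with Dox, and for Dppa2, Dppa3 and Dppa4 the difference between the libraries with and without Dox rose along the hours. The 4 pairs of libraries at matched hours gave 1 call among the 4 genes for an average difference, against 2.83% of all genes tested. For a difference that changes with hour they gave 3 calls, against 2.84% of all genes.

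**Figure D2:**
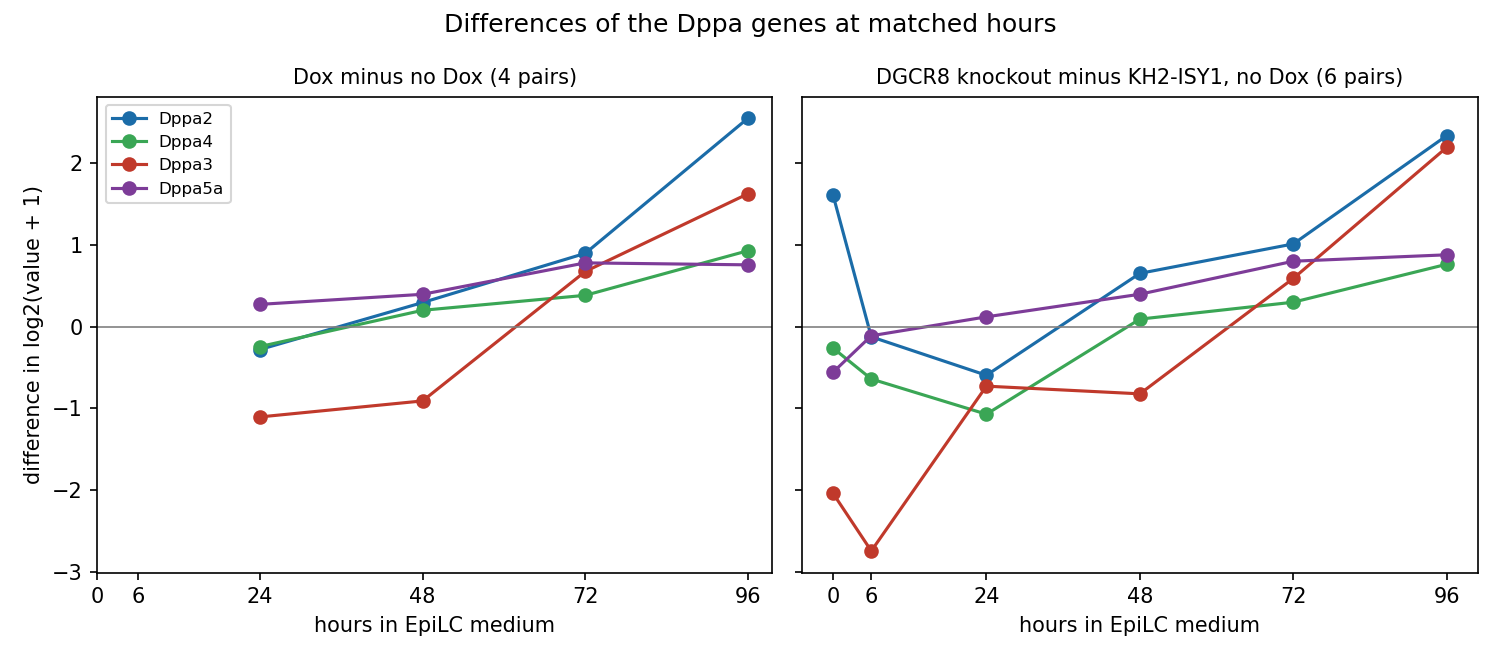
Difference in log2(value + 1) between libraries at the same hour, with Dox minus without (left, 4 pairs) and DGCR8 knockout minus KH2-ISY1 without Dox (right, 6 pairs), for the 4 Dppa genes. At 96 h all 8 differences are above 0, with Dppa2 at 2.55 on the left and 2.33 on the right; both panels subtract the same libraries without Dox.

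Dppa2 was 883.2 with Dox and 1072.7 without at 24 h, 649.1 and 529.2 at 48 h, 721.7 and 387.5 at 72 h, and 532.1 and 90.2 at 96 h. The library with Dox was the lower one at 24 h and 5.90-fold the higher at 96 h. The difference grew by 0.54 ± 0.08 on the log2 scale per square root of an hour (limma adjusted p = 0.0118), while its average of 0.86 ± 0.39 did not pass (limma adjusted p = 0.244). Leaving out the 96 h pair gave an average of 0.30, and leaving out the 24 h pair 1.25.

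Dppa4 was 885.0 with Dox and 1048.2 without at 24 h, 1057.0 and 920.4 at 48 h, 699.6 and 536.5 at 72 h, and 598.2 and 314.0 at 96 h. As with Dppa2, the first pair pointed down and the last 3 up. The slope was 0.22 ± 0.04 (limma adjusted p = 0.0291), and the average difference of 0.32 ± 0.17 did not pass (limma adjusted p = 0.305). Its average was 0.11 when the 96 h pair was left out and 0.50 when the 24 h pair was.

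Dppa3 was 3.7 with Dox and 9.1 without at 24 h, 18.4 and 35.4 at 48 h, 34.1 and 21.0 at 72 h, and 48.0 and 14.9 at 96 h. The first 2 pairs were lower with Dox and the last 2 higher. At 24 h the libraries hold 4 and 10 reads of Dppa3, and the exact Poisson intervals of 1.02 to 9.57 and 4.36 to 16.7 overlap. The slope was 0.58 ± 0.13 (limma adjusted p = 0.0472), and the average was 0.07 ± 0.46 (limma adjusted p = 0.945).

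Dppa5a was 16453.3 with Dox and 13627.3 without at 24 h, 16682.5 and 12688.5 at 48 h, 6681.6 and 3894.0 at 72 h, and 4582.4 and 2715.3 at 96 h. It was higher with Dox in 4 of 4 pairs, by 1.21- to 1.72-fold. It is the 1 member whose average difference passed, at 0.55 ± 0.10 (limma adjusted p = 0.0435), and its slope of 0.11 ± 0.04 did not pass (limma adjusted p = 0.156). The widest step down lay between 48 and 72 h both with Dox, from 16682.5 to 6681.6, and without, from 12688.5 to 3894.0.

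These calls rest on few pairs. None of the 4 calls held without the intensity trend of the variance, where the adjusted p-values were 0.142 for Dppa5a and 0.184, 0.174 and 0.216 for the slopes of Dppa2, Dppa3 and Dppa4. The slopes of Dppa3 and Dppa4 were also lost without the 96 h pair (limma adjusted p = 0.360 and 0.330), that of Dppa4 without the 24 h pair (0.0515), and the average of Dppa5a without the 48 h, 72 h or 96 h pair (0.142, 0.256 and 0.0807). With another pseudocount or filter on low values the slope of Dppa3 missed the threshold (0.0546 to 0.0629), and without the 96 h pair that of Dppa2 was 0.33.

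Markers of other states and cell types also differed within these pairs. The summed fibroblast markers, 3 of 7 found with at most 1 of them at 0 in a library, were 43.6, 42.5, 147.0 and 154.5 without Dox at 24, 48, 72 and 96 h and 56.1, 28.1, 38.9 and 26.2 with it. The summed primitive endoderm markers, 5 of 6 found with at most 1 at 0, were 40.9, 20.4, 30.0 and 27.8 without Dox and 102.9, 57.0, 72.6 and 80.6 with it. Of 13 naive genes 6 were higher and 0 lower with Dox, and of 10 formative genes 0 were higher and 4 lower, where 1.78% of all genes were higher and 1.05% lower. The part of these markers in the Dppa differences was not tested.

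Genes of the early cleavage embryo, a program that Dppa2 and Dppa4 can switch on, were higher late in the course. From 24 to 96 h without Dox, 8 of 11 tested genes of the two-cell-like list rose and 0 fell, against 15.3% and 15.6% of all genes. The summed value of the 12 of 23 listed two-cell-like genes found in the table was 19.0, 40.8, 181.5 and 120.9 without Dox at 24, 48, 72 and 96 h, and 21.4, 113.9, 704.0 and 561.2 with Dox. Without Dox the sum was 9.6 to 29.7 at 0 to 36 h, the hours of the Dppa2 plateau included. The sum was highest at 72 h, when Dppa2 and Dppa4 had fallen, and a link of these 2 genes to it was not tested. Zscan4c, a marker of the two-cell-like state, was higher with Dox by 1.67 ± 0.27 (limma adjusted p = 0.0371). Of the 12 genes, 3 were higher and 0 lower with Dox, against 1.78% and 1.05% of all genes, with a median difference of 1.26 against -0.01. These 3 calls, that of Zscan4c among them, were lost without the intensity trend, with no block and without the 48 h or the 72 h pair, settings under which limma called 0 genes of any kind, with 3306, 1276, 3210 and 1924 genes at an unadjusted p under 0.05. edgeR, on the 24 and 48 h pairs and without the 72 and 96 h pairs, called 522 genes of any kind. Whether two-cell-like genes are among them is not reported here. Zscan4 genes are near copies of each other, and reads may be shared among them.

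In the DGCR8 knockout line, Dppa2 and Dppa4 were highest at 48 h, Dppa3 was lowest at 24 h and Dppa5a was lowest at 96 h. All 4 Dppa genes passed the limma test of a smooth course over its 6 libraries, against 25.1% of the 16106 genes tested. In its first 24 h, 3 of 4 passed, against 3.50% of all genes, and from 24 to 96 h 2 of 4, against 15.2%.

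Dppa2 stood in the knockout at 300.0, 537.1, 710.1, 831.3, 781.7 and 458.9 at 0, 6, 24, 48, 72 and 96 h. It began 3.08-fold above the 97.4 of KH2-ISY1 without Dox at 0 h and was highest at 48 h. At 96 h it was 5.09-fold above KH2-ISY1 without Dox, which had itself fallen to 90.2. Dppa4 stood at 208.8, 341.9, 498.7, 980.8, 660.0 and 533.2. At 24 h Dppa4 was 2.10-fold below the value without the knockout, and at 48 h the 2 lines were at 980.8 and 920.4. The fitted changes in the knockout from 0 to 24 h were 1.43 ± 0.23 for Dppa2 (limma adjusted p = 0.0261) and 1.68 ± 0.32 for Dppa4 (limma adjusted p = 0.0421). From 24 to 96 h they were -0.60 ± 0.23 (limma adjusted p = 0.133) and -0.05 ± 0.33 (limma adjusted p = 0.935).

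Dppa3 stood in the knockout at 55.9, 13.3, 5.1, 19.6, 32.1 and 71.6 at the same hours. It began 4.15-fold below the value of KH2-ISY1, had its lowest library at 24 h in both lines, and at 96 h was above its own 0 h value. The fitted change was -2.64 ± 0.48 from 0 to 24 h (limma adjusted p = 0.0343) and 3.31 ± 0.48 from 24 to 96 h (limma adjusted p = 0.0075). By the estimated scaling factors, the 24 h library holds about 12 reads of Dppa3 and the 96 h library about 504.

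Dppa5a stood in the knockout at 12463.8, 14446.7, 14803.0, 16692.5, 6776.3 and 4988.9. It was highest at 48 h, and the step down fell between 48 and 72 h, as it did without the knockout. The fitted change was 0.53 ± 0.31 from 0 to 24 h (limma adjusted p = 0.43) and -1.75 ± 0.32 from 24 to 96 h (limma adjusted p = 0.0138).

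The calls within the knockout course depended on single libraries. Over the whole course, Dppa4 lost its call without the 72 h library (limma adjusted p = 0.0642) and Dppa5a without the 72 h or 96 h library (0.0807 and 0.273). All 3 calls of the first 24 h were lost without the intensity trend (0.0576 to 0.0941) and without the 24 h, 48 h or 72 h library (limma adjusted p = 0.0586 to 0.15). From 24 to 96 h, the call of Dppa3 was lost without the 24 h library (0.0622) and that of Dppa5a without the 24 h or 72 h library (0.0606 and 0.0614). With time itself in place of its square root, Dppa3 lost its call over the whole course (0.118), from 0 to 24 h, where its change was -1.12 (0.32), and from 24 to 96 h (0.0879).

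As an average over the 6 matched hours, none of the 4 Dppa genes differed past the threshold between the knockout and KH2-ISY1 without Dox, where 42.4% of all genes tested did. By the unadjusted p of limma, 1 of the 4, Dppa2, was under 0.05. The average differences were 0.81 ± 0.33 for Dppa2 (limma adjusted p = 0.076), -0.59 ± 0.55 for Dppa3 (0.412), -0.14 ± 0.21 for Dppa4 (0.625) and 0.25 ± 0.18 for Dppa5a (0.279). Without the 24 h pair, Dppa2 passed, at 1.10 (limma adjusted p = 0.0272), and without the 96 h pair it was 0.51. Leaving out the 96 h pair took Dppa3 to -1.15, and leaving out the 6 h pair took it to -0.16. Dppa4 was -0.32 and 0.05 without the 96 h and the 24 h pair, and Dppa5a was 0.13 and 0.42 without the 96 h and the 0 h pair. The averages hide changes of sign along the course: Dppa3 differed by -2.04, -2.74, -0.73, -0.82, 0.59 and 2.19 from 0 to 96 h. Dppa4 differed by -0.26, -0.64, -1.07, 0.09, 0.30 and 0.76, and Dppa2 by 1.61, -0.12, -0.59, 0.65, 1.01 and 2.33.

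Dppa5a is the 1 member whose knockout difference changed with hour past the threshold, against 0.523% of all genes tested. It differed by -0.56, -0.11, 0.12, 0.40, 0.80 and 0.88 at 0, 6, 24, 48, 72 and 96 h, in the order of the hours. The slope was 0.15 ± 0.02 per square root of an hour (limma adjusted p = 0.0331). The call was lost without the intensity trend (0.11) and without the 0 h, 6 h, 48 h, 72 h or 96 h pair (0.0878, 0.0766, 0.0582, 0.179 and 0.171). The slopes of Dppa3, Dppa4 and Dppa2 were 0.43 (limma adjusted p = 0.0658), 0.12 (0.311) and 0.09 (0.714).

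The Dox and knockout comparisons use the same 4 libraries without Dox at 24, 48, 72 and 96 h, so an extreme value there moves both. At 96 h, Dppa2 was 90.2 without Dox, 532.1 with Dox and 458.9 in the knockout, and Dppa5a was 2715.3, 4582.4 and 4988.9. Dppa3 was 14.9, 48.0 and 71.6, and Dppa4 was 314.0, 598.2 and 533.2. For each gene the value without Dox was the lowest of the 3. The knockout libraries at 72 and 96 h hold an estimated 33470000 and 38840000 reads, against 11420000 and an estimated 13150000 reads without Dox. The part of depth was not tested. The fibroblast sum at 72 and 96 h was 147.0 and 154.5 without Dox, 38.9 and 26.2 with Dox, and 25.4 and 42.0 in the knockout. Over the 6 hours, Thy1 and Col1a1 of that list were lower in the knockout, at -1.29 ± 0.29 (limma adjusted p = 0.00656) and -1.13 ± 0.26 (limma adjusted p = 0.00767), and their part in the Dppa values was not tested. The two-cell-like sum in the knockout was 5.6, 8.7, 7.5, 17.7, 312.2 and 518.9 at 0, 6, 24, 48, 72 and 96 h. Without Dox this sum was 21.8, 11.4, 19.0, 40.8, 181.5 and 120.9 at the same hours. As an average over the 6 hours, 0 of 12 two-cell-like genes were higher and 0 lower in the knockout, against 18.1% and 24.3% of all genes. Along the knockout course 11 of 12 tested two-cell-like genes rose and 0 fell, against 13.8% and 11.3% of all genes.

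Return of EpiLCs to 2i/LIF raised Dppa3 and lowered Dppa2 and Dppa4, so that 3 of 4 passed the limma test over the 4 pairs of a cESC library and the EpiLC library it came from, against 18.4% of the 16075 genes tested. Dppa3 rose by 4.99 ± 0.43 (limma adjusted p = 0.00030), the 9th highest change of all genes tested. Dppa2 fell by 2.93 on the log2 scale (SE 0.29, limma adjusted p = 0.000653) and Dppa4 by 1.95 (SE 0.14, limma adjusted p = 0.000183). Dppa5a, which had not yet fallen at 24 and 48 h, differed by 0.28 ± 0.15 (limma adjusted p = 0.219).

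**Figure D3:**
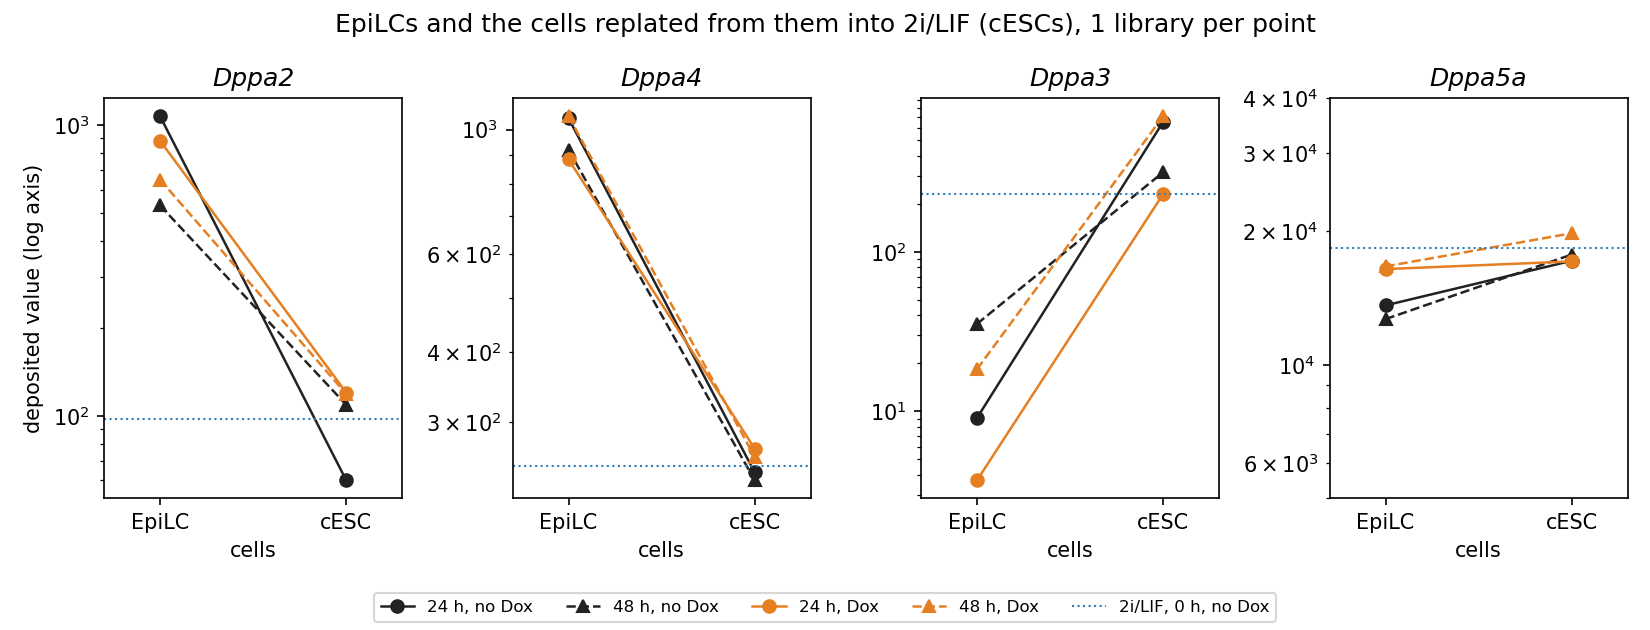
Deposited values on log axes in 24 h and 48 h EpiLCs and in the cESCs made from them, without and with Dox in the EpiLC stage, 1 library per point; lines join a cESC library to the EpiLC library of origin and the dotted line is the first 2i/LIF library. All 4 lines fall for Dppa2 and Dppa4 and rise for Dppa3, and Dppa4 ends between 236.4 and 269.3, around the 250.4 of the dotted line.

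For Dppa4, the cESC values were 244.2 and 236.4 from 24 h and 48 h EpiLCs without Dox and 269.3 and 260.4 from those with Dox. The starting 2i/LIF library had 250.4, so all 4 values lie within 1.08-fold of it. Dppa2 came to 60.0 and 109.1 without and 120.2 and 118.9 with earlier Dox, around the starting 97.4. The cESC library from 24 h EpiLCs without Dox is the low one, 1.62-fold below the start. Dppa5a was 17179.2, 17740.9, 17121.9 and 19818.9 in the same order, against 18358.3 at the start.

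Dppa3 went past its starting value in 3 of 4 cESC libraries. It was 654.2 and 316.4 in cESCs from 24 h and 48 h EpiLCs without Dox, and 230.7 and 709.9 in those from EpiLCs with Dox, against 232.2 in the starting 2i/LIF cells. The libraries from 24 h without Dox and from 48 h with Dox are the high ones, at 2.82- and 3.06-fold the start. The effect of earlier Dox thus pointed down for 24 h EpiLCs and up for 48 h EpiLCs, and there is no replicate to test it. Each cESC library holds at least 263 reads of Dppa3. Dppa3-ps was highest in the same 2 libraries, at 57.5 and 45.9. All 3 calls held under all 13 alternatives, edgeR on recovered reads among them.

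Among 14 measured germ cell genes, 6 rose and 4 fell on the return to 2i/LIF, against 5.62% and 12.8% of all genes, with a median change of 0.53 against -0.14. Tfap2c, a germ cell transcription factor and one of the 5 genes most like Dppa3, rose by 5.72 ± 0.45 (limma adjusted p = 0.000208). Prdm14, which represses DNA methylation genes in naive cells, rose by 4.07 ± 0.54 (limma adjusted p = 0.0024). Of the 13 naive genes, Prdm14 among them, 7 rose and 0 fell, against the same shares of all genes and with a median of 1.79. Of 10 formative genes 0 rose and 9 fell, with a median of -3.33. Of the 11 genes listed as DNA methylation partners of Dppa3, 5 fell and 0 rose, against the same shares and with a median of -0.83, among them Dnmt3l, at -5.60 ± 0.25 (limma adjusted p = 7.22e-05), and Dnmt3b, at -3.36 ± 0.23 (limma adjusted p = 0.000174). The RNA of Uhrf1, whose protein Dppa3 holds back, stood at 971.7, 1469.1, 1477.2 and 984.7 in the cESCs. This RNA was lowest in the 2 libraries with the highest Dppa3, which 4 libraries do not allow to test. UHRF1 protein was not measured here, so these values do not bear on how Dppa3 acts on it.

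In embryoid bodies, Dppa2, Dppa4 and Dppa5a fell by day 13, and 3 of 4 passed the limma test of a smooth course over the 7 libraries, against 26.9% of the 16753 genes tested. Dppa5a was lower in each library than in the one before, while Dppa2 and Dppa4 were highest at day 1. Dppa3 did not pass. These 7 libraries were scaled apart from the EpiLC table, so levels are not compared across the tables.

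**Figure D4:**
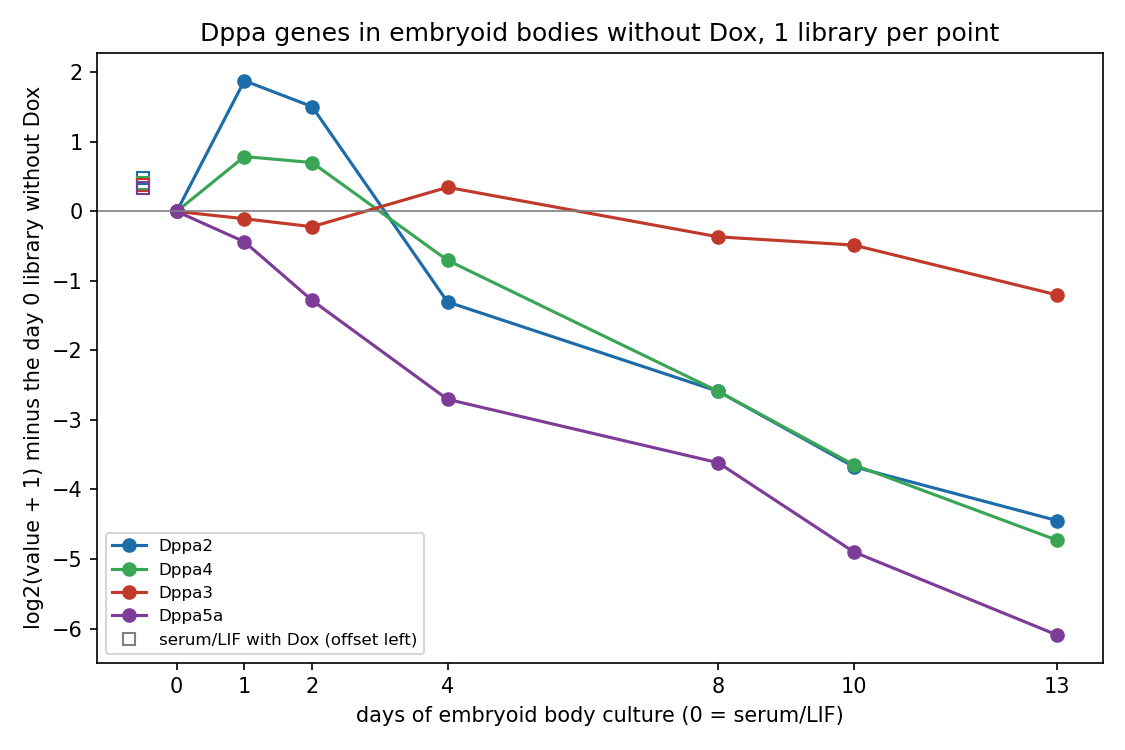
Difference in log2(value + 1) from the day 0 serum/LIF library without Dox against days of embryoid body culture, 1 library per point, with serum/LIF cells with Dox as open squares offset to the left. Dppa2 and Dppa4 are highest at day 1, Dppa5a falls at every step to -6.09 at day 13, and the 4 open squares lie between 0.34 and 0.49.

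Dppa5a stood at 15825.7, 11689.1, 6517.11, 2430.00, 1290.00, 530.00 and 231.11 at days 0, 1, 2, 4, 8, 10 and 13. Each library was lower than the one before, and the last was 68.5-fold below the first. The fitted change from day 0 to 13 was -6.12 ± 0.37 (limma adjusted p = 0.00057).

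Dppa2 stood at 408.41, 1506.29, 1162.89, 165.00, 67.06, 31.11 and 17.78 at the same days. It was 3.69-fold above day 0 at day 1 and 23.0-fold below it at day 13. Dppa4 stood at 511.36, 884.38, 833.11, 313.75, 84.12, 40.00 and 18.33, with its highest library at day 1 as well, 1.73-fold above day 0. The values above day 0 rest on the day 1 and day 2 libraries, and the rise by itself was not tested. The libraries of days 0, 1 and 2 hold 23840000, 56020000 and 23710000 reads, and those from day 4 on 8820000 to 9510000. The part of depth in this course was not tested. The fitted changes from day 0 to 13 were -5.62 ± 0.87 for Dppa2 (limma adjusted p = 0.00529) and -5.22 ± 0.38 for Dppa4 (limma adjusted p = 0.00066).

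Dppa3 stood at 26.82, 24.86, 22.89, 34.38, 20.59, 18.89 and 11.11, with reads of 118, 261, 103, 55, 35, 34 and 20. The day 4 library was the highest and the day 13 library the lowest. The fitted change of -0.85 ± 0.46 did not pass (limma adjusted p = 0.182). Together with Dppa2, Dppa4 and Dppa5a, the ESC marker sum fell from 16574.55 at day 0 to 1025.0 at day 13. The fibroblast marker sum was at most 328.77 up to day 10 and 12580.56 at day 13, and the primitive endoderm sum rose from 122.50 at day 0 to 1993.34 at day 13; their part in the Dppa values was not tested.

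In serum/LIF the library with Dox was above the one without for all 4 genes. Dppa2 was 572.14 with and 408.41 without, Dppa3 35.24 and 26.82, Dppa4 681.67 and 511.36, and Dppa5a 20075.2 and 15825.7. The differences were 0.49, 0.38, 0.41 and 0.34 on the log2(value + 1) scale, where the median of all genes was -0.04. None of the 4 was past 2-fold, as 9.38% of all genes were. With 1 library on each side there is no test.

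The nearest genes on the chromosome in the GRCm38.p6 gene table were set beside each Dppa gene. Dppa2 and Dppa4 are neighbours of each other in it, with Morc1, a germ cell chromatin gene, next to Dppa2 and Gm7204 next to Dppa4. Along the EpiLC course Morc1 went from 1807.0 at 0 h to 801.2 at 6 h, climbed to 1522.4 at 30 h and ended at 26.0 at 96 h. Morc1 was at 1460.9 at 24 h and never above its starting value. Its change from 0 to 24 h was -0.26 (limma adjusted p = 0.533), where Dppa2 and Dppa4 rose. Gm7204, on the side of Dppa4, rose in the same stretch, by 0.68 (limma adjusted p = 0.0332), from 86.1 at 0 h to 159.1 at 24 h, and was at 136.2 at 96 h. With Dox, Morc1 was at 798.1 at 72 h and 401.4 at 96 h, against 124.0 and 26.0 without. The average of that difference over the 4 pairs, 1.85, did not pass (limma adjusted p = 0.112). The correlation of Morc1 over the 24 libraries was 0.205 with Dppa2 and 0.183 with Dppa4. Gm7204 had 0.417 and 0.639, and the genes one further out, Dzip3 beside Morc1 and Gm4737 beside Gm7204, had 0.042 with Dppa2 and 0.016 with Dppa4.

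**Figure D5:**
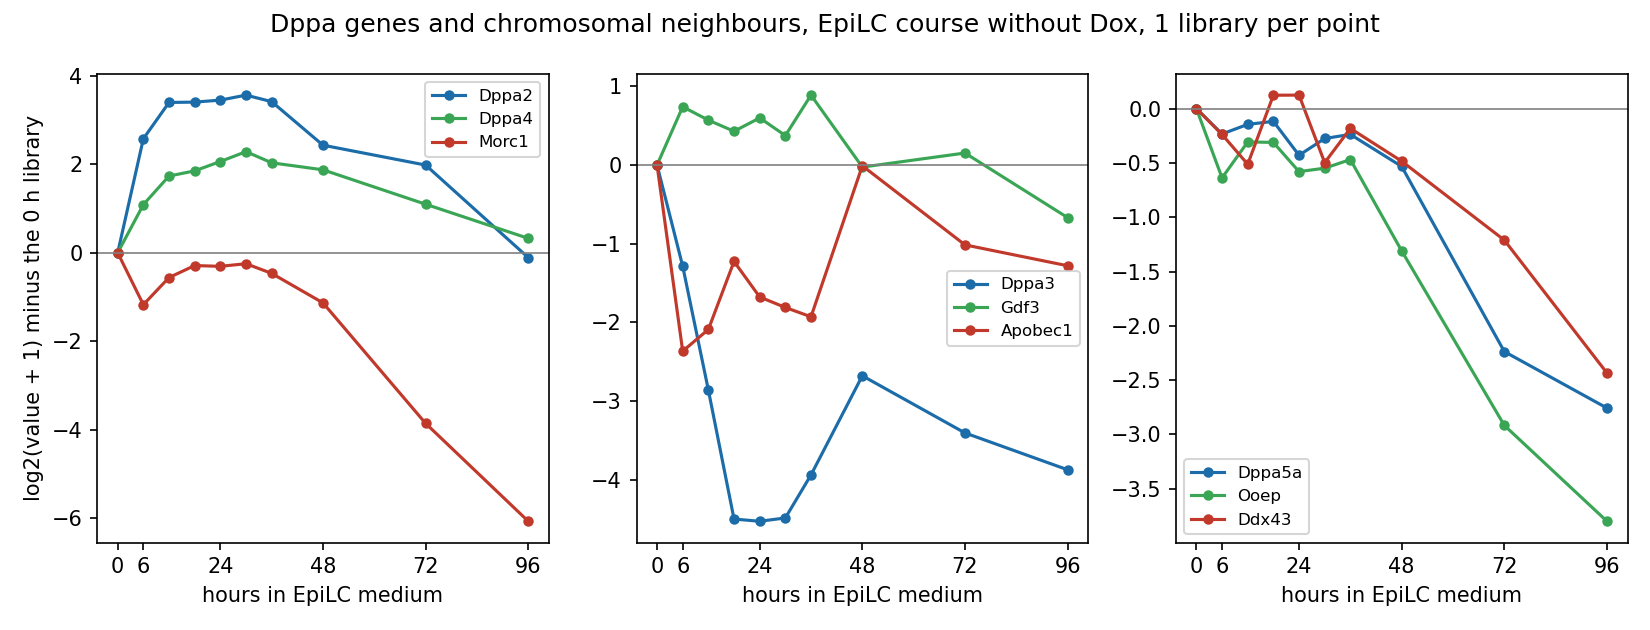
Difference in log2(value + 1) from the 0 h library along the EpiLC course without Dox, 1 library per point, for Dppa2 and Dppa4 with Morc1, Dppa3 with Gdf3 and Apobec1, and Dppa5a with Ooep and Ddx43. Morc1 drops at 6 h, climbs until 30 h and stays below its 0 h value throughout. Gdf3 is above its 0 h value from 6 to 36 h, when Dppa3 is below its own. Ooep falls with Dppa5a after 48 h but is already lower at 48 h (379.6) than at 0 h (942.6).

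Ooep, another KH-domain gene known from the egg, lies next to Dppa5a and fell late as well. Ooep was 942.6 at 0 h, 605.4 at 6 h, 680.5 at 36 h, 379.6 at 48 h, 124.0 at 72 h and 66.8 at 96 h. Its change from 24 to 96 h was -3.50 (limma adjusted p = 3.98e-06). In the knockout comparison Ooep was higher by 1.13 ± 0.35 (limma adjusted p = 0.0291), with Dppa5a at 0.25 ± 0.18. The correlation with Dppa5a was 0.808 over 24 libraries and 0.996 over the 8 of the EB table. Ddx43, an RNA helicase gene on the same side, had 0.637 and 0.951, and Gsta2 and Gm10639 on the other side had 0.406 and 0.188 over the 24 libraries. All 4 measured genes of the KH-domain list fell along the EpiLC course, as 24.8% of all genes did, with a median of -4.91 against -0.02. Among them were Khdc3 at -7.08 ± 0.76 (limma adjusted p = 7.22e-05), Khdc1a at -5.18 ± 0.80 (limma adjusted p = 0.000426) and Khdc1c at -4.64 ± 0.75 (limma adjusted p = 0.00078). Khdc1a had already dropped from 40.9 to 8.9 at 6 h and 1.8 at 12 h, with 16596.4 of Dppa5a at 12 h against 18358.3 at the start.

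Gdf3, a Nodal-related ligand, and behind it Apobec1, a cytidine deaminase, lie on one side of Dppa3, and Gm10420 and Gm10224 on the other. Gdf3 was 690.4 at 0 h and 1046.4 at 24 h, when Dppa3 had fallen from 232.2 to 9.1. Its change over the first 24 h was 0.54 (limma adjusted p = 0.172), and its correlation with Dppa3 over the 24 libraries was -0.477. Apobec1, Gm10420 and Gm10224 had 0.394, 0.420 and 0.351. In the knockout comparison Gdf3 was higher by 1.21 ± 0.17 (limma adjusted p = 0.000697), with Dppa3 at -0.59 ± 0.55.

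Among other genes of the states that the Dppa genes mark, all 13 naive pluripotency genes of the list fell along the EpiLC course, as 24.8% of all genes did. Within 24 h, in which 10.7% of all genes rose and 10.3% fell, 8 of the 13 fell, as Dppa3 did. Of 14 germ cell genes 4 fell and 0 rose in these 24 h, with Tfap2c at -5.27 and Kit at -3.56, and the median of the list was -0.11. Of 10 formative epiblast genes 8 rose and 1 fell over the same 24 h, in which Dppa2 and Dppa4 rose, with a median of 3.52 against 0.00 over all genes. Of 9 ES cell associated transcripts, 3 rose and 3 fell in that stretch. Those that rose, as Dppa2 and Dppa4 did, were Dnmt3l by 5.05 ± 0.54 (limma adjusted p = 0.000182), Utf1 by 3.64 ± 0.19 (limma adjusted p = 2.65e-06) and Eras by 2.62 ± 0.57 (limma adjusted p = 0.0087). Of the 4 ESC markers, 4 fell over the whole course. Of 5 primitive endoderm genes 1 rose and 3 fell, where 50.1% of all genes passed in either direction.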

How the data were processed

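Total RNA was taken with Trizol and polyA libraries were made with a stranded TruSeq kit, per the labels' protocols. Bowtie, GRCm38 and mm9 are named without roles in the submitters' processing notes. The deposited values are a signal: gene reads divided by 1 size factor per library, as the values show. In 24 of 32 libraries, 100% of low values were whole reads within 0.1 read. At most 0.00589% of a library lay in a row without a name, which was left out, and 20 and 22 rows had date-like names. Each condition has 1 library, and the labels name no cultures, so p-values measure scatter around a curve or between hours.

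Values were tested as log2(value + 1), for genes with a mean of at least 1, with limma 3.58.1 (R 4.3.3, empirical Bayes with an intensity trend) and Benjamini-Hochberg adjustment over all genes at 0.05. Courses used natural splines of the square root of time (3 df for EpiLCs, 2 df otherwise). Matched hours were a block. Slopes were fitted to paired differences. The course fits and the fits of average differences were also run on simulated counts. The slopes and the 0 to 24 h and 24 to 96 h stretches were not. edgeR 4.0.16 was run on recovered reads. Its use on the EpiLC and EB courses and the return, the 0 to 24 h and 24 to 96 h stretches and the alternatives for the slopes were chosen after seeing the data. The Dppa genes are named throughout, with up to 3 members per list with the largest change past the threshold, the 5 most alike genes (1 of those for Dppa3 is not reported here) and 2 neighbours per side. Morc1, Gdf3, Apobec1, Ooep and Ddx43 were picked from those neighbours after their values were seen, and Uhrf1 after its values were seen. The members and lists were chosen with earlier results of these data known.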

Additional observations from a re-analysis of the deposited data

Results flagged for a closer look

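In 4 cases a difference between conditions itself changed along the hours past the threshold of the limma test of that change. With Dox minus without, the slope per square root of an hour was 0.5398 for Dppa2, 0.583 for Dppa3 and 0.2244 for Dppa4. Dppa3 and Dppa4 pointed down at 24 h and up at 96 h, as did Dppa2. For the DGCR8 knockout minus KH2-ISY1 without Dox, the slope was 0.1468 for Dppa5a, from -0.56 at 0 h to 0.88 at 96 h. All 4 rest on 1 library per point, and the 96 h library without Dox enters each of them.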

How the results depend on the processing

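The labels give no replicate numbers, so no replicate number could serve as a block, and the matched hour or the EpiLC of origin did. The cause of the changes below was not tested, and further lost Dppa calls stand beside their results. The end difference of Dppa2 on the EpiLC course was -0.4775 with time itself and -0.3609 with a straight line, and the straight line gave 3772 genes in place of 8125 and 1 Dppa gene in place of 4. In the knockout course a straight line also called 1, Dppa4. For the Dox effect, 0 genes and 0 Dppa genes passed without the intensity trend (3306 genes had an unadjusted p below 0.05) and also with no block (1276), against 456 and 1. edgeR on the 24 and 48 h pairs called 522 of 14128 genes and 0 Dppa genes, with -0.0228 for Dppa2, -1.021 for Dppa3 and -0.04154 for Dppa4. The knockout effect called 3487 genes without the block against 6899, the return to 2i/LIF 1878 without the trend against 2960, the Dox slope 0 and 0 Dppa genes without the trend (2455 unadjusted), and the knockout slope 16 and 0 without the trend and 245 and 2 with time itself, against 85 and 1. With time itself the stretch from 0 to 24 h called 2117 genes on the EpiLC course against 3404, and 1086 on the knockout course against 563.

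With each library or pair left out in turn, Dppa2 ranged from -2.556 to 1.888 and Dppa4 from -0.8005 to 1.106 on the EpiLC course. The EB course called 1919 to 5847 genes. The knockout course called 1542 to 4996 genes and 2 to 4 Dppa genes, with Dppa2 from -0.04245 to 1.378 and Dppa3 from -0.5929 to 2.717, and Dppa4 from 24 to 96 h ranged from -0.4158 to 0.169. Its 0 to 24 h stretch called 24 to 1449 genes and 0 to 3 Dppa genes, and its 24 to 96 h stretch 371 to 3074 and 0 to 2. For the stretches the 0 h and 96 h libraries were not left out. The Dox effect called 0 to 1122 genes (0 when the 48 h or 72 h hours were dropped, with 3210 and 1924 unadjusted) and 0 to 1 Dppa genes, with Dppa3 from -0.4458 to 0.4633. The knockout effect called 0 to 1 Dppa genes, with Dppa4 from -0.3162 to 0.05024. The return called 1236 to 3028 genes. The Dox slope called 400 to 1142 genes and 1 to 3 Dppa genes, and the knockout slope 5 to 59 and 0 to 1, with Dppa2 from -0.0381 to 0.3356.

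edgeR called 6326 of 15461 genes on the EpiLC course (without the 96 h library), 4311 of 16364 on the EB course and 2635 of 14705 on the return, with 4, 3 and 3 Dppa genes. It was not run on the knockout effect, where whole reads were recovered in 1 knockout library. Median-ratio rescaling moved the knockout split from 2941 higher and 3958 lower to 3570 and 3121, and that of the return from 903 and 2057 to 1274 and 1630, as the median of all genes moved from -0.14 to -0.02 there. Depth limits Dppa3 most, with 4 to 16 reads in the libraries at its low point.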
